A study of Mus musculus with 12 samples.

Results

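Constant regions away from gene boundaries are stretches of open chromatin that were called in all 6 peak lists of a withdrawal series and that lie more than 1000 bases from the start and the end of every protein-coding gene. Members were chosen by presence in all 6 lists and by that distance, so neither property is read as a result. The 6 lists merged into 16028 regions, of which 5265 (32.8%) were called in every list, and 1240 of these lay away from boundaries. The 1240 members were thus 23.6% of the constant regions (95% Wilson interval 22.4 to 24.7) and 7.74% of all regions. Members were set beside the 4025 constant regions at gene boundaries and the 7124 other regions away from boundaries, which were missing from at least 1 list.

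ATAC-seq uses the Tn5 transposase to cut and tag DNA that is not wrapped tightly in nucleosomes, so its peaks mark accessible chromatin. The cells were ER-Hoxa9-Lys-GFP cells of C57BL/6 mice, cultured in medium with stem cell factor. They carry the homeobox factor Hoxa9 fused to the hormone-binding part of the estrogen receptor, which is active with estradiol (E2) and holds the cells as immature myeloid progenitors, and a GFP reporter of lysozyme expression. All 6 groups carried both constructs. One group stayed in E2 (0 h of withdrawal). In the next 4 groups E2 was washed out for 24, 40, 56 or 72 h and then returned for 96, 80, 64 or 48 h. The last group went 120 h with no E2. Per the labels' protocol, nuclei of 1 preparation were split into a pair of transposition reactions, so the 2 libraries of a group may be technical, and each group had 1 deposited peak list. The cells are a conditionally immortalised line grown in vitro, and longer withdrawal always came with shorter return of E2, so the effects of both durations cannot be told apart.

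Accessible sites that persist through differentiation are, as background, often promoters, binding sites of the architectural protein CTCF and genes for abundant non-coding RNAs, while enhancers that bind lineage factors tend to open and close with cell state. Genes often have several promoters, so a site inside a gene can be the start of another transcript. Small RNA genes transcribed by RNA polymerase III, such as tRNA genes, carry their own short promoters and lie both inside and between protein-coding genes. Each of these classes can be read from an annotation, whereas CTCF binding was not measured here.

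The lists held 13165, 11465, 9940, 8989, 9581 and 7987 peaks at 0, 24, 40, 56, 72 and 120 h. They gave positions alone, with no height, count or depth, so peak width was the measured quantity and no replicate error could be given. Intervals below cover counting error over regions only, and no test between samples was possible. Of the myeloid progenitor markers, 7 of 10 genes had a boundary region in at least 1 list, with Spi1 in all 6. Those of Kit and Myb were called in every list but that of 120 h. Those of Flt3 and Mpo were called at 0, 24 and 40 h, that of Cebpa at 0, 24 and 72 h and that of Cd34 at 0 h alone. Csf3r, Cd33 and Ptprc had none in any list. Of granulocyte markers 4 of 7 had one, with Lcn2, S100a8 and S100a9 at 120 h alone and Mmp8 in every list but that of 56 h, continuous E2 included. Camp, Ltf and Ngp had none in any list. Of markers of other cells 1 of 10 had one, at the B-lineage factor gene Ebf1 in all 6 lists. A constant region lay 991.5 bases from the Ebf1 boundary, close to the limit of 1000 bases. The part of the Ebf1 call in any result was not tested.

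Annotated transcript starts lay inside 446 of the 1240 members (36.0%, interval 33.3 to 38.7). The share was 9.95% (709 of 7124) among the other regions away from boundaries, a difference of 26.0 points (Newcombe interval 23.3 to 28.8). It was 82.4% (3316 of 4025) among constant regions at boundaries, a share that their choice near gene starts and ends largely sets. The starts belonged to protein-coding genes in 367 members and to long non-coding RNA (lncRNA) genes in 112, and some members held both kinds. A member with a protein-coding start is possible because the distance was taken from the outermost ends of each gene, while RefSeq lists starts of inner and shorter transcripts as well. Of the 446 members with a start, 385 (86.3%) lay inside a protein-coding gene.

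To show what these starts look like in letters, windows of 300 bases, 250 before to 50 after an annotated start, are printed for 4 of the 10 widest members. The letters are RefSeq's, build GRCm38.p6, 5′ to 3′ on the strand of the gene. Capitals mark a match to a short motif on either strand. In Zbtb11, which encodes a zinc finger protein with a BTB domain, they mark the ETS motif, searched as ACCGGAAGT. In Hnrnph1, which encodes an RNA-binding protein of splicing, they mark the NRF1 motif, searched as GCGCATGCG. In Dleu2, a lncRNA gene that hosts microRNAs, they mark the PU.1 motif, searched as GAGGAAGT. The Dleu2 window also holds TATAAA, the letters searched as a TATA box, left in lower case. Crlf2, which encodes a receptor subunit for the cytokine TSLP, had no match to any motif searched and is shown for its wide and steady peak.
Zbtb11 (chr16:55973554-55973853, plus strand): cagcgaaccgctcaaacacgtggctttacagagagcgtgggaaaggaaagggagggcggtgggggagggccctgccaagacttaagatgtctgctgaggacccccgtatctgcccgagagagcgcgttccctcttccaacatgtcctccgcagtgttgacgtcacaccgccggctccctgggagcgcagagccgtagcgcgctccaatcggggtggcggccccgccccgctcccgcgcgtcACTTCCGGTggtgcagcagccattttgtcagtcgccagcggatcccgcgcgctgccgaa
Hnrnph1 (chr11:50377428-50377727, plus strand): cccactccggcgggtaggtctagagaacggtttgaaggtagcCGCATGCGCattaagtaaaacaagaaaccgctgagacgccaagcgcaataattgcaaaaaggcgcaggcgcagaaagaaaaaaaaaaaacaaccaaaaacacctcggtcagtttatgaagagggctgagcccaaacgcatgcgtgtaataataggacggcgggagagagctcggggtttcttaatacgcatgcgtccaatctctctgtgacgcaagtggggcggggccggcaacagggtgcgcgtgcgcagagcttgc
Dleu2 (chr14:61682324-61682623, minus strand): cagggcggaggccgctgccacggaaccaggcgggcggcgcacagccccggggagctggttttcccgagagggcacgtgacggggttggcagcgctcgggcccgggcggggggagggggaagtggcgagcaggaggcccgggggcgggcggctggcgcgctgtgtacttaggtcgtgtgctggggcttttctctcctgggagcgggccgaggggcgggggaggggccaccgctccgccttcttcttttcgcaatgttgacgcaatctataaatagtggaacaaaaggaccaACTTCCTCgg
Crlf2 (chr5:109558944-109559243, minus strand): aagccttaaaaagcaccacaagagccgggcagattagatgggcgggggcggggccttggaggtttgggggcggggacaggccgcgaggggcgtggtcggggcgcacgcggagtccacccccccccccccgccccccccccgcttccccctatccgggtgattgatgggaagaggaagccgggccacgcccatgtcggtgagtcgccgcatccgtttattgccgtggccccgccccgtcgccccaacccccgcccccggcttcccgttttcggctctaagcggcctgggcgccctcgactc

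The peaks over these 4 starts differed in how they moved. The member in Crlf2 (chr5:109556739-109559070) was 2310, 2279, 2293, 2273, 2286 and 2325 bases wide at 0, 24, 40, 56, 72 and 120 h. That in Zbtb11 (chr16:55973407-55975108) was 1663, 1677, 1607, 1560, 1561 and 1585 bases wide and also held a start of the antisense lncRNA Zbtb11os1. Both peaks were nearly as wide at 120 h as in continuous E2, with ratios of 1.006 and 0.953. The member in Hnrnph1 (chr11:50377007-50378682) was 1603, 1664, 1573, 1489, 1409 and 1412 bases wide, a ratio of 0.881 at 120 h. The Dleu2 member (chr14:61680924-61683023) was 2100, 1942, 1759, 1172, 1330 and 1216 bases wide, a ratio of 0.579. It lay in no protein-coding gene and was lowest after 56 h.

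Further from genes, fewer members held a start, but the gap to the other regions remained at each distance. Between 1000 and 5000 bases from the nearest boundary, 54.7% of 426 members and 21.8% of 1298 other regions held one. Between 5000 and 20000 bases the shares were 37.2% of 374 members and 9.39% of 2406 other regions. Beyond 20000 bases they were 16.8% of 440 members and 5.85% of 3420 other regions. Wide regions have more room for a start, so the count was repeated with a fixed window: a start lay within 250 bases of the midpoint in 30.6% of members and 7.59% of the other regions, a difference of 23.1 points (20.5 to 25.7).

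**Figure D1:**
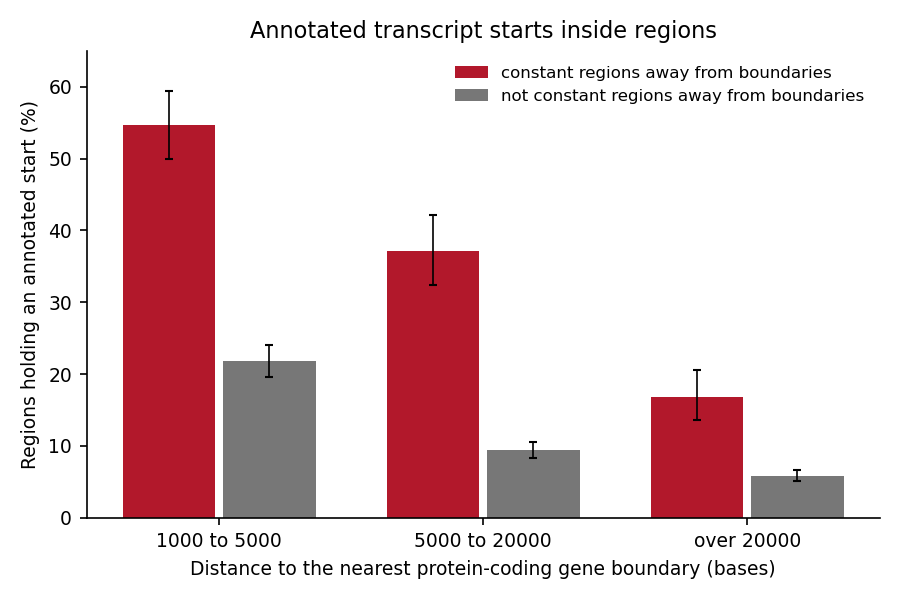
Share of regions away from gene boundaries that held an annotated transcript start (vertical axis, percent), by distance to the nearest protein-coding gene boundary (horizontal axis, bases), for the 1240 members and the 7124 other regions, with 95% Wilson intervals. Members stood above the other regions in each class, 54.7% against 21.8% nearest to genes and 16.8% against 5.85% furthest away.

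The start sat near the middle of the open region, with a median distance to the midpoint of 108 bases. A start lay inside the peak in 445, 445, 439, 439, 438 and 433 of the 446 members at 0, 24, 40, 56, 72 and 120 h. In 430 of them (96.4%, interval 94.3 to 97.8) 1 and the same start lay inside the peak of every list. The 446 were picked for a start inside the region joined over the lists, which in part sets these high shares, above all at 0 h. No expected share was computed.

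Base composition set the windows of members apart from those of the other regions away from boundaries. Over the 575 windows of members the median GC content was 63.7% and the median number of CG pairs was 24. Over 873 windows in other regions away from boundaries they were 59.0% and 16, over 4661 windows in constant boundary regions 63.3% and 25, and over all 32817 annotated windows 52.7% and 7. The windows of members were thus close to those of constant boundary promoters in both measures. Windows of neighbouring starts overlap and share bases.

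Motif matches in these windows followed the same order for some motifs and not for others. The ETS motif was in 3.83% of windows of members (interval 2.54 to 5.72), 1.15% in other regions away from boundaries (0.623 to 2.10), 3.20% in constant boundary regions and 1.09% of all windows. The intervals of members and of the other regions away from boundaries thus separated for ETS, with members higher. The NRF1 motif was in 3.48%, 2.52%, 6.09% and 1.75% in the same order. The CTCF core motif was in 15.1%, 12.8%, 14.1% and 8.61%, and this motif is short on fixed bases and rich in G and C, as the windows are.

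Among motifs of lineage factors, the intervals of members and of the other regions away from boundaries separated for RUNX alone. The RUNX motif, searched as TGTGGTTT, was in 3 windows of members (0.522%, interval 0.178 to 1.52) and 24 of the other regions (2.75%, interval 1.85 to 4.06). The PU.1 motif was in 3.30% (2.13 to 5.10) and 5.38% (4.07 to 7.09) of windows, and the C/EBP motif, searched as TTGCNNAAT, in 1.22% (0.591 to 2.49) and 2.98% (2.04 to 4.33). The AP-1 motif, searched as TGANTCA, was in 4.52% (3.10 to 6.54) and 6.19% (4.77 to 7.98). The GATA motif, searched as AGATAAG, was in 0.696% (0.271 to 1.77) and 1.83% (1.13 to 2.96). The motif of HOX with a TALE partner, searched as TGATTTAT, was in 1 window of members (0.174%) and 0.344% of the windows of other regions. All these intervals other than those of RUNX overlap. Overlap of separate intervals does not show that 2 shares are alike, and no interval of the difference was computed for motifs. The intervals also treat windows as independent, though some members hold several. A TATA box, searched as TATAAA, was in 6.26% and 6.19%, against 13.6% of all windows. Each motif was searched on both strands. PU.1 and ETS motifs share their core letters, and a GC-rich window holds fewer matches to AT-rich motifs by composition alone, the part of which was not tested.

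Small RNA genes formed another class of members. A start or end of one lay inside 32 members (2.58%, interval 1.83 to 3.62), against 1.11% of the other regions away from boundaries, a difference of 1.47 points (0.677 to 2.53), and 1.09% of constant boundary regions. Wide regions have more room for such a boundary. In continuous E2 the median width was 822 bases in members, 668 in the other regions called there and 962 in constant boundary regions. No fixed window was counted for small RNA genes, so the part of width was not tested. By kind, 13 members held a tRNA gene, 7 a small nuclear RNA gene, 5 a small nucleolar RNA gene, 4 a microRNA gene and 1 a Y RNA gene. Another 2 held a gene of the annotation's miscellaneous RNA class, which is not small by name but is counted in the 32 and their share. Of the 32, 15 also held an annotated start. For tRNA genes alone, the members' share of 1.05% and the 0.646% of other regions differed by 0.403 points, with an interval that includes 0 (-0.0820 to 1.16). Counting non-coding genes of every kind, 15.6% of members had a boundary within 1000 bases of the midpoint, against 9.40% of other regions away from boundaries (difference 6.16 points, 4.12 to 8.38).

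Several of these small RNAs are abundant in every cell. Rn7sk encodes 7SK, the RNA that holds the elongation factor P-TEFb inactive, and its member (chr9:78175370-78176836) was 1452, 1337, 1355, 1153, 782 and 610 bases wide at 0, 24, 40, 56, 72 and 120 h. Rnu1a1 encodes the U1 RNA of the spliceosome, and its member, inside Tex14 (chr11:87422569-87423700), was 971, 998, 879, 955, 1132 and 875 bases wide. Rny1 encodes a Y RNA, and its member (chr6:47788170-47788997) was 828, 730, 493, 444, 448 and 472 bases wide. The 7SK peak was thus much narrower at 120 h, with a ratio of 0.420, while that of Rnu1a1 kept 0.901 of its width. Both genes belong to families with many near-identical copies, so reads may be shared between them. The 32 members had median widths of 1119, 1019.5, 888, 753, 735.5 and 701 bases along the series.

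The microRNA gene Mirlet7i, a member of the let-7 family, which is known to restrain growth-promoting genes, lay in a member 6000 bases from Mon2 (chr10:122985354-122986766). That member was 1413, 1189, 1198, 1015, 1053 and 905 bases wide. Its mature RNAs are printed from RefSeq, build GRCm38.p6, with the seed, bases 2 to 8, in capitals. The seed of the 5p strand is the one that defines the let-7 family.
mmu-let-7i-5p (chr10:122985698-122985719, minus strand): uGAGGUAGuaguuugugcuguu
mmu-let-7i-3p (chr10:122985642-122985663, minus strand): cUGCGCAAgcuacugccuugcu

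Most members were narrower after longer withdrawal. Their median width was 822, 743, 655, 560.5, 561 and 543.5 bases at 0, 24, 40, 56, 72 and 120 h. Most of the difference was thus present in the 56 h list. The 120 h peak was narrower than the continuous E2 peak in 1145 members, wider in 81 and equal in 14. The median ratio was 0.679 (log2 -0.56, quartiles -0.83 and -0.28). Of the constant boundary regions, 3970 were narrower, 52 wider and 3 equal at 120 h, with a median ratio of 0.668. Over all peaks of a list, whether in members or not, the median width was 839 bases at 0 h and 581 bases at 120 h. The narrowing was thus not particular to members, and its cause was not tested. In 82.9% of members the 120 h peak lay wholly inside the continuous E2 peak, against 90.9% of constant boundary regions.

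Narrowing by at least 1.5-fold against continuous E2 was counted in each later list. It was found in 71 members (5.73%) at 24 h, 226 (18.2%) at 40 h, 520 (41.9%) at 56 h, 516 (41.6%) at 72 h and 585 (47.2%, interval 44.4 to 50.0) at 120 h. Among all regions called in both lists the shares were 6.98%, 20.0%, 44.9%, 45.9% and 50.5%. The members' shares lay close to and below those of all regions in each list. Just 3 members (0.242%) were at least 1.5-fold wider at 120 h, against 0.123% of all regions. At 120 h the share in members minus the 49.6% of constant boundary regions was -2.46 points, with an interval of -5.63 to 0.720 that includes 0. This difference had no steady sign: it was -7.16 points (-10.6 to -3.62) where peaks had to cover at least 50% of the region and 4.46 points (0.0386 to 8.89) among regions between the quartiles of the members' widths.

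**Figure D2:**
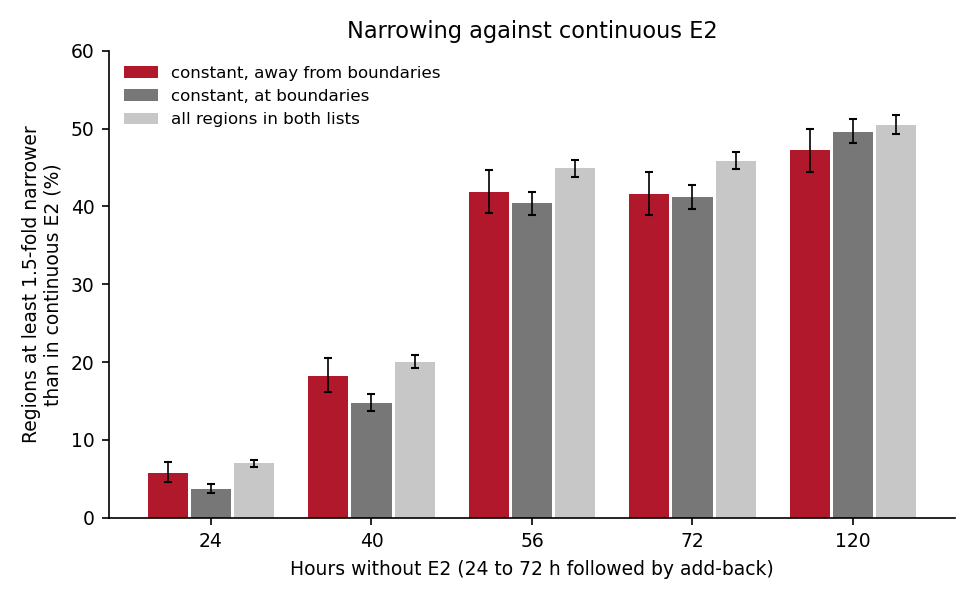
Share of regions at least 1.5-fold narrower than in continuous E2 (vertical axis, percent) by hours without E2 (horizontal axis), for members, constant regions at boundaries and all regions called in both lists, with 95% Wilson intervals. All 3 sets stepped up between 24 and 56 h, to 41.9%, 40.4% and 44.9% at 56 h.

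Narrowing was also counted between neighbouring lists. Each list is a separate group, and E2 was returned after 24 to 72 h, so these steps are not a course in time. The steps also span unequal hours of withdrawal. Narrowing was at least 1.5-fold in 71 members (5.73%, background 6.98%) at 24 h against 0 h. It was found in 86 (6.94%, background 7.94%) at 40 h against 24 h and in 116 (9.35%, background 10.4%) at 56 h against 40 h. At 72 h against 56 h, 16 members (1.29%, background 1.64%) were narrower and 27 (2.18%, background 2.09%) wider. At 120 h against 72 h, 50 members (4.03%, background 3.35%) were narrower. Of the 585 members narrower at 120 h, the steepest step came at 24 h in 123, at 40 h in 157, at 56 h in 173, at 72 h in 28 and at 120 h in 104. These are 21.0%, 26.8%, 29.6%, 4.79% and 17.8%, against 22.5%, 28.0%, 29.0%, 6.51% and 14.0% of the 1998 constant boundary regions narrower at 120 h.

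The 3 kinds of member differed in width. Members with an annotated start had median widths of 636.5 bases at 120 h and 966.5 bases in continuous E2, close to the 627 bases at 120 h and 962 bases in continuous E2 of constant boundary regions. The 729 members with neither a start nor fixed edges had 499 bases at 120 h and 752 bases in continuous E2. The share narrowed at least 1.5-fold at 120 h was 48.0% in members with a start (interval 43.4 to 52.6) and 46.7% in all 794 members with no start (interval 43.3 to 50.2), so the intervals overlap. The 120 h peak lay inside the E2 peak in 92.8% of members with a start, 77.3% of all members with no start and 90.9% of constant boundary regions.

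**Figure D3:**
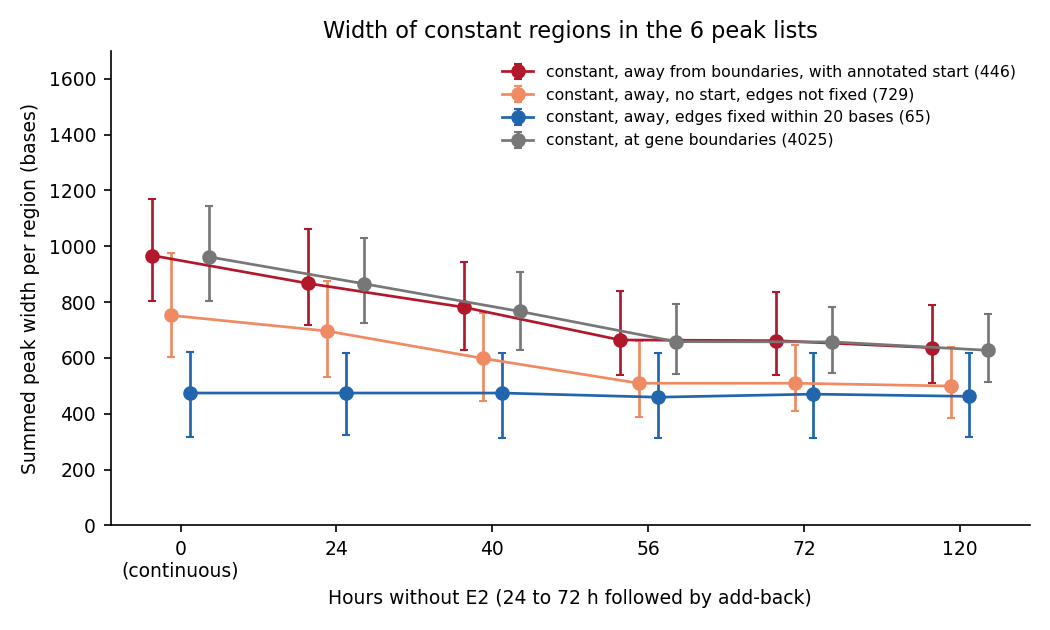
Median summed peak width per region (vertical axis, bases; bars span the quartiles over regions) by hours without E2 (horizontal axis) for 3 kinds of members and for constant regions at boundaries. Members with a start ran together with boundary regions, 636.5 and 627 bases at 120 h, while members with fixed edges had medians of 459 to 474 bases, a steadiness that their choice sets.

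Width values on chromosomes 18 and 19 need separate reading, because rows there were repeated and overlapping in the deposited lists. Of the 83 members on them, 31 (37.3%) had a 120 h peak merged from 2 or more rows and 80 (96.4%) had such a peak in continuous E2, against 0 of 1157 members elsewhere in either list. A fall of 4-fold or more was found in 4 of the 83 (4.82%) and 5 of the 1157 (0.432%). At 1.5-fold the shares were 51.8% and 46.8%. Of the 5 largest falls, those in Smarca2, in Smim3 and near Mc2r lay on these chromosomes and are not described further.

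Elsewhere, the 5 largest falls lay both inside genes and far from them. The member 276759.5 bases from Mat2b (chr11:40402045-40403064) was 1020, 562, 544, 391, 369 and 183 bases wide. The member near Arhgap5 (chr12:52602999-52604952) was 1949, 1850, 1764, 1704, 1107 and 392 bases wide, so it was wide in the lists up to 56 h and narrower in the later ones. It spans 2 small nuclear RNA genes. The members in Serinc5, 125833 bases from Kap and in Dab2ip had ratios of 0.205, 0.234 and 0.234 at 120 h.

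Rises were few and smaller. In Ezr, which encodes ezrin, a linker of membrane and actin, the member (chr17:6746703-6747314) was 279, 433, 322, 315, 610 and 598 bases wide. In Mmp9, the gelatinase of neutrophil granules, it was 315, 495, 320, 336, 411 and 487 bases wide (chr2:164942811-164943309), a ratio of 1.546 with no steady course. The members near Sem1, Mfsd1 and Epha6 had ratios of 1.577, 1.398 and 1.386.

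**Figure D4:**
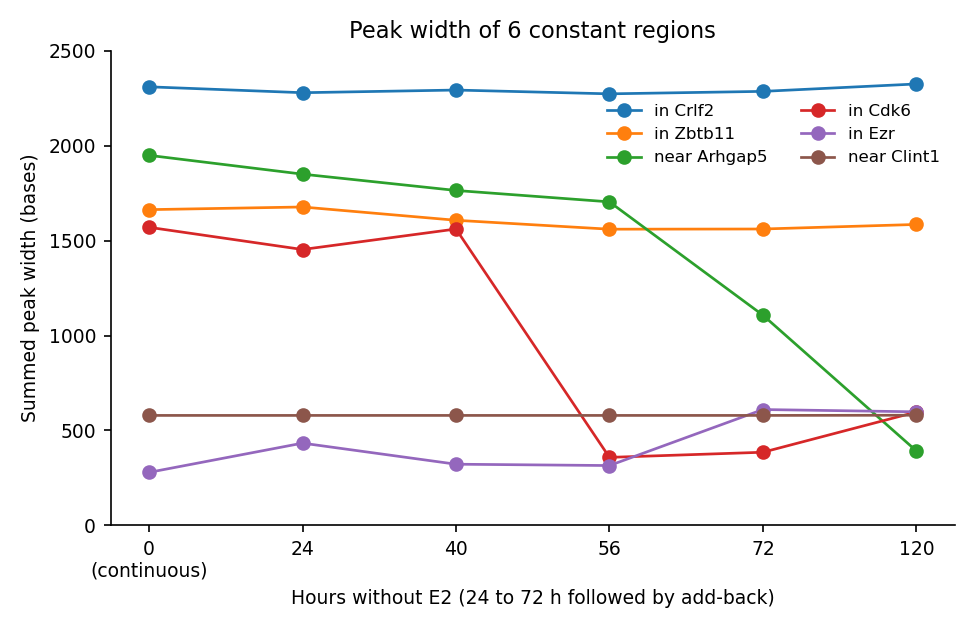
Summed peak width (vertical axis, bases) of 6 members by hours without E2 (horizontal axis). The members in Crlf2 and Zbtb11 held their width, that in Cdk6 was lowest at 56 h, that near Arhgap5 reached 392 bases at 120 h, that in Ezr was wider at 72 and 120 h, and that near Clint1 stayed at 579 or 580 bases.

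A small group of members hardly moved at all. In 65 members (5.24%, interval 4.13 to 6.63) both outer edges of the peak lay within 20 bases of each other across all 6 lists, and in 36 within 5 bases. The limit of 20 bases was set after the values were seen. With all lists shortened to equal length by keeping the widest peaks of each, 9 of 660 members had such edges. A cut of this kind drops narrow peaks first. Among the 4025 constant boundary regions there was 1 such region, at Lars2 (0.0248%). None of the 65 held an annotated start, a small RNA gene boundary or a boundary of another non-coding gene, although with 65 regions a share of up to 5.58% is within the interval. Over all members the median edge difference was 228 bases.

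Their positions and widths differed from those of the other members as well. Their median distance to the nearest gene boundary was 83867 bases, against 14739 bases for members with neither a start nor fixed edges. Of the 65, 39 lay over 50000 bases from any boundary, 29 of them in no gene, and 21 lay inside a gene. On the X chromosome lay 12 of them (18.5%, interval 10.9 to 29.6), against 3.29% of members with neither. Their median widths over the 6 lists had a median of 470 bases and a range of 229 to 1646.5 bases. A lost region lay within 10000 bases of 1 of the 65 (1.54%), against 11.4% of members with neither.

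The steadiest members changed by 1 or 2 bases. The member between genes at chr11:45757113-45757692, 94541.5 bases from Clint1, was 579 bases wide in the first 5 lists and 580 bases at 120 h. That at chrX:120912858-120913421, 2517.5 bases from Pcdh11x, was 564, 563, 563, 564, 564 and 563 bases wide. That at chr13:96359637-96360048 was 412, 411, 411, 412, 411 and 411 bases wide, and members in Megf9 and Mlip changed by 2 bases. The widest of all members, at chr14:19415766-19419448 and 116093 bases from Gm2244, was 3629, 3649, 3679, 3656, 3653 and 3642 bases wide, with its edges within 41 bases. The member near Gm3558 (chr14:7522917-7524567) was 1637 to 1649 bases wide. What sequence these regions hold was not analysed here, and whether regions of unusually high signal were removed is not given in the sources used here.

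**Figure D5:**
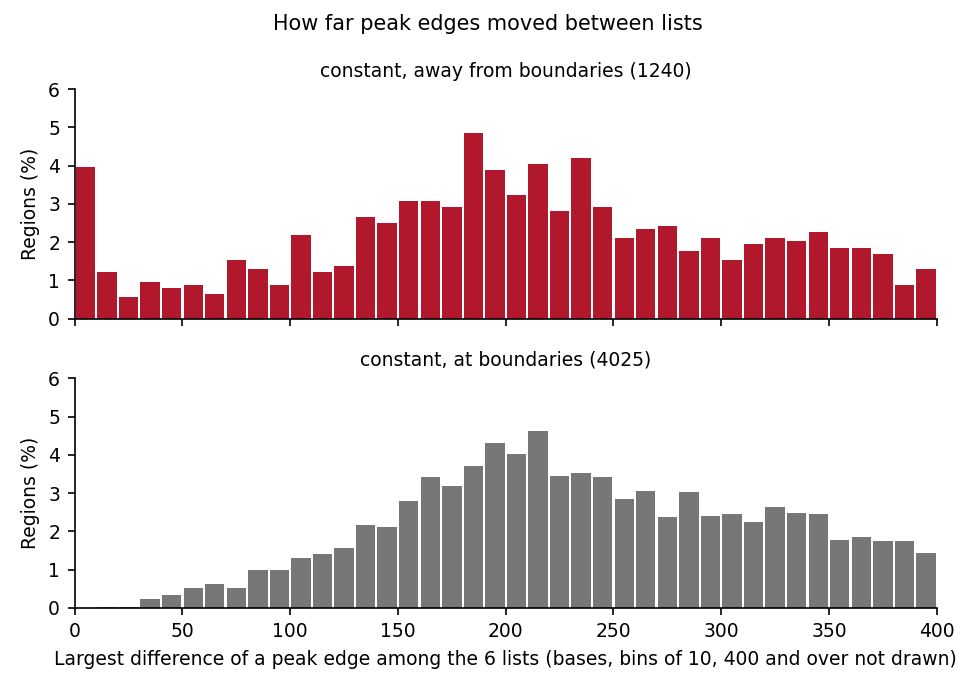
Distribution of the largest difference of a peak edge among the 6 lists (horizontal axis, bases, bins of 10, values of 400 and over not drawn) as percent of regions (vertical axis), for members above and constant boundary regions below. At 0 to 20 bases lay 65 of 1240 members and 1 of 4025 boundary regions. The first bins held 49, 15, 7 and 12 members, so no gap marks the limit of 20 bases.

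By chromosome, members were 29.5% of the 173 regions away from boundaries on X and 11.0% to 18.1% on the autosomes. Of the members, 754 (60.8%) lay inside a protein-coding gene, against 52.4% of other regions away from boundaries (difference 8.42 points, 5.44 to 11.3). The median distance to the nearest boundary was 10189.2 bases, against 18720.5 bases for the other regions.

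Members were spread over many genes. A member inside protein-coding genes was assigned to each of them at any distance from the boundary, and one in no gene to the nearest gene within 50000 bases. So assigned, members fell to 1023 genes (9.56% of the 10705 genes with a region), with 1 member at 960, 2 at 59 and 3 at 4, while 159 members had no gene and 9 were counted at more than 1 gene. The 4 genes with 3 members were Csf2ra, a GM-CSF receptor subunit gene whose members lie on chromosome 19, Gramd1b, Fos and Tbc1d14. Near Fos, which encodes an AP-1 subunit, the members at chr12:85454974-85455802, chr12:85468537-85469283 and chr12:85485826-85486954 had 120 h ratios of 0.880, 0.566 and 0.406. Those of Gramd1b had ratios of 0.542, 0.374 and 0.734, those of Tbc1d14 0.938, 1.352 and 0.718, and those of Csf2ra 0.488, 0.829 and 0.548. The members of 1 gene thus differed in width change, and 1 in Tbc1d14 was wider at 120 h. Within 10000 bases of another member lay 30 members, in 15 pairs.

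Lost regions, called in continuous E2 and not at 120 h, lay beside members too. One lay within 10000 bases of 10.3% of members and 11.6% of other regions away from boundaries, a difference of -1.26 points with an interval that includes 0 (-3.01 to 0.698). Counted within 5000 bases the difference was -1.44 points (-2.24 to -0.401) and within 25000 bases -2.72 points (-5.31 to -0.00457), and with a boundary window of 500 bases it was -1.92 points (-3.51 to -0.153), so these intervals exclude 0. Members exceeded the 7.30% of constant boundary regions by 3.02 points (1.23 to 4.99), but within 5000 bases the difference was 0.556 points, with an interval that includes 0 (-0.233 to 1.57). A gained region, called at 120 h and not in continuous E2, lay near 2.58% of members, 3.62% of other regions away from boundaries and 2.04% of constant boundary regions.

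Among 12 gene lists drawn up with earlier results of these data known, progenitor and Hoxa9-associated genes had 5 members, at 5 of the 25 genes with a region. They had 35 lost and 4 gained regions away from boundaries. Counts below are likewise over the listed genes with a region, to be read beside the 9.56% of all such genes that had a member. No such share was computed for lost and gained regions, so their counts are not read as a trait of any list. Of the other regions away from boundaries, 5257 were called in continuous E2 and 1471 at 120 h. Lost regions thus outnumbered gained ones in the whole series as well. In Cdk6, a cell cycle kinase of myeloid progenitors, the member (chr5:3501427-3503165) was 1570, 1453, 1561, 358, 385 and 597 bases wide. It was wide up to 40 h and narrow in all later lists. In Ets1, an ETS factor gene, it was 612, 616, 465, 477, 476 and 413 bases wide. Hlf, which encodes a transcription factor of hematopoietic stem cells, had a member of 512, 430, 368, 357, 357 and 248 bases 27182.5 bases away. In Tgm2 and Camk2d the 120 h ratios were 0.545 and 0.792.

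Myeloid transcription factor genes had 4 members at 2 of 24 genes, 3 near Fos and 1 in Mef2c, beside 17 lost and 5 gained regions away from boundaries. Phagocyte function genes had 7 members at 6 of 23 genes, beside 9 lost and 12 gained. Near Tlr2, a receptor for bacterial lipoproteins, the member was 696, 556, 405, 190, 410 and 536 bases wide (chr3:83862900-83863595), narrowest at 56 h and wider in the later lists. Near Ptafr, the receptor of platelet-activating factor, it was 596, 523, 535, 210, 392 and 440 bases wide, also narrowest at 56 h. Those near Rac2, a GTPase of the NADPH oxidase, and Alox5ap, which serves leukotriene synthesis, had ratios of 0.780 and 0.586. That near the Fc receptor gene Fcgr3 held a tRNA gene, and 1 of the 2 members of Cd47 held a start of Cd47 itself.

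Late neutrophil genes had 1 member, in Mmp9, over 16 genes, beside 5 lost and 5 gained regions, and monocyte and macrophage genes had 1, near Nr4a1, over 9 genes, beside 4 lost and 3 gained. The Nr4a1 member was 672, 651, 658, 527, 549 and 682 bases wide, about as wide at 120 h as in continuous E2. Primary granule, erythroid, lymphoid and mast cell genes had 0 members over 11, 5, 5 and 3 genes, so the last 3 lists had little room for one.

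Cell cycle genes had 5 members at 5 of 21 genes, beside 5 lost and 3 gained regions. Near Mki67, the proliferation marker Ki-67, the member (chr7:135735579-135736599) was 897, 850, 1014, 770, 811 and 785 bases wide. In Cdkn1a, the inhibitor p21, it was 737, 769, 824, 604, 734 and 638 bases wide. Those in Ccna2, near Ccne1 and in Ccnd3, genes of cyclins, had ratios of 0.729, 0.768 and 0.655, and that in Ccnd3 held an annotated start.

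Genes of genome architecture and chromatin had 6 members at 5 of 22 genes, beside 11 lost and 1 gained. In Stag1, a cohesin subunit gene, the member held a start 45864.5 bases from the nearest boundary by midpoint (chr9:100642795-100644352) and was 1528, 1523, 1361, 1282, 1232 and 1221 bases wide. The member beside Chd2, a chromatin remodeller gene, held a start of the lncRNA gene Chaserr and was 1238, 1088, 824, 820, 795 and 837 bases wide. In Hdac4, a histone deacetylase gene, the ratio at 120 h was 0.759 and the member held a start.

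Among housekeeping genes, the member near Actb, the gene of beta-actin, was 745, 743, 691, 715, 670 and 602 bases wide, so it kept 0.808 of its width at 120 h.

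The distance and list rules placed some regions close to the limit. Just above 1000 bases lay the members near Fbp2 (1002.5 bases), in Iba57 (1005) and in Cyp4f18 (1017), and just below lay constant regions near Sucnr1 (996), in Clk3 (994) and near Ebf1 (991.5). Away from boundaries, 803 regions were missing from a single list, in 106, 66, 70, 88, 41 and 432 cases that of 0, 24, 40, 56, 72 and 120 h. By the median over the lists in which a region was called, members were 624.5 bases wide and these 803 regions 587 bases.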

How the data were processed

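The authors deposited 6 ATAC-seq peak lists, 1 for each group of 2 libraries, holding chromosome, start and end and no other value, so no unit beyond bases applies. In the submitters' processing notes the tools BWA, STAR 2.5 and MACS2 2.0 appear without a stated role, beside the build mm9. The coordinates fit GRCm38: protein-coding gene boundaries of GRCm38.p6 (RefSeq) lay within 1000 bases of 50.6% to 68.0% of the peaks, and of 6.52% to 7.19% after a shift of 100000 bases. How the libraries were combined, and whether any regions were removed, is not given in the sources used here.

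Duplicate rows and intervals over 10000 bases were left out, overlaps were merged, and the lists were joined by overlap of 1 base or more. Peak width in a region was the summed width of its peaks. Shares have 95% Wilson intervals and differences Newcombe intervals. The depth of each sample was unknown. Members and gene lists were chosen with earlier results of these data known. Regions named were those at the extremes of width, change and steadiness, at the distance limit, at genes with the most members and at listed genes. The 5 largest falls outside chromosomes 18 and 19, the examples of small RNA genes, the TATA motif, the annotated starts and the fixed edges were added after the values were seen. Alternatives covered overlap, boundary window, peak width, list length, chromosomes, width fold and single lists. Merging, region classes and intervals were tested on simulated lists. The computation ran in Python 3.11.15 with pandas 2.3.3, scipy 1.17.1 and numpy 2.4.6, and figures were drawn with matplotlib 3.10.9. One result taken by the naming rule is not reported here.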

Additional observations from a re-analysis of the deposited data

How the results depend on the processing

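Most values moved little under the alternatives. With all lists shortened to equal length, members numbered 660 in place of 1240, and fixed-edge members 9 in place of 65. The share of members at least 1.5-fold narrower at 120 h was 51.7% with lists of equal length, 31.9% where peaks had to cover at least 50% of the region, and 16.4% at 2-fold. Its difference from constant boundary regions was -7.16 points under that rule of 50% coverage, 4.46 points among regions between the quartiles of the members' widths and 0.135 points without fixed-edge regions, so its sign depended on these choices. The interval also lay below 0 with a boundary window of 2500 bases (-3.69 points), with no base within 1000 bases of a boundary (-3.65) and without peaks under 300 bases (-3.95). The excess of annotated starts over other regions away from boundaries was 29.0 points with a boundary window of 500 bases, 21.5 with 2500 bases, 29.6 without peaks under 300 bases and 38.4 with lists of equal length. The excess of non-coding boundaries was 9.86 points with lists of equal length. For lost regions within 5000 bases, members minus constant boundary regions gave 0.556 points (-0.233 to 1.57), which includes 0. Fixed edges within 5 bases left 36 members. In each of these cases the cause was not tested. Shortened lists held fewer peaks, and the widest ones alone. Leaving out a single list gave 1281 to 1672 members. The annotated start and fixed-edge results, the chromosome split, the distance classes, the fixed window, the cover of starts in each list and the share over all members with no start were added after seeing the data.

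No paired analysis was possible because each group had 1 deposited list for both of its libraries. For the same reason no replicate was left out. The depth behind each list was unknown, so widths carry no error of their own.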

Other observations

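Fixed edges were also counted by the number of lists a region was called in, which was chosen after seeing the data. Among regions away from boundaries, edges within 20 bases were found in 157 of 1767 regions of 2 lists, 22 of 1209 of 3, 22 of 666 of 4, 21 of 803 of 5 and 65 of 1240 of 6. Among regions at boundaries the counts were 41 of 492, 5 of 548, 1 of 722, 0 of 1377 and 1 of 4025. At boundaries the share was 8.33% at 2 lists and 0.0248% at 6. Away from boundaries it was 8.89% at 2 lists, 1.82% at 3 and 5.24% at 6. The rows hold different regions, and regions of 2 lists have fewer edges to compare.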
